A study of Mus musculus and Homo sapiens with 16 samples.

Results

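The 9 genes described here encode the receptors, linkers and ligands by which basal keratinocytes hold to the basement membrane: Itga6, Itgb4, Itga3, Itgb1, Col17a1, Dst, Plec, Lama3 and Lamb3. They form a set named by symbol among the 39179 annotated genes, by a rule that sets no threshold on a measured value, and all 9 were matched in both sets of libraries by Ensembl identifier. RNA was measured in 10 libraries of skin epithelium from C57BL/6 mice labelled as heterozygous or knockout for Klf5, the gene of a zinc-finger transcription factor of epithelia. The E17.5 set, from embryos, held 3 libraries labelled Klf5+/- and 3 labelled Klf5-/-, made from dispase-peeled epidermis that was treated with trypsin and sorted for DAPI-, CD45- and integrin alpha 6 positive cells. The other set has the letters HFD in its titles, which are not spelled out, and comprised 2 Klf5+/- and 2 Klf5-/- libraries from peeled epidermis ground without sorting; a directional kit was used and no stage is given. Chromatin came from 1 library for each assay of sorted E17.5 epithelium labelled wild type: KLF5 ChIP-seq, ChIP-seq of H3K27ac (a histone mark of active promoters and enhancers) and ATAC-seq, which marks open chromatin and whose title says Het. The labels do not say how Klf5 was deleted, in which cells, or whether the replicates are different animals. P-values therefore refer to the variation among these libraries, part of which could be technical.

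Hemidesmosomes rivet the keratin filaments of the basal layer to the basement membrane. The integrin alpha 6 beta 4 and the transmembrane collagen XVII bind the epidermal laminin outside the cell, and the plakins dystonin (its epithelial isoform is BP230) and plectin bind keratin inside it. The integrin alpha 3 beta 1 binds the same laminin but links it to actin, and loss of hemidesmosome or laminin proteins is known to cause blistering of the skin.

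Between 31819010 and 46445546 reads per library were counted on genes. The libraries labelled Klf5-/- did not have less Klf5 RNA: Klf5 lay at 163 to 199 CPM (counts scaled to library size) in the E17.5 Klf5+/- libraries and at 174 to 197 in those labelled Klf5-/-. In the HFD set it lay at 42.8 to 62.8 and 101 to 120 CPM. The log2 difference was 0.02 (SE 0.10, adjusted p = 0.982) at E17.5 and 1.06 (SE 0.23, adjusted p = 0.0533) in the HFD set by edgeR's quasi-likelihood test. Counts over a whole gene do not show which part is deleted, so they do not check these labels. The basal keratins were abundant in every library, with Krt5 at 11911 to 17124 CPM at E17.5 and from 3963 CPM up to 9294 CPM elsewhere.

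KLF5 peaks lay near the starts of 4 of the 9 genes. These were Itgb1, Itgb4, Lamb3 and Itga3, counting peaks within 5 kb of the annotated gene start, and 22.9% of the 15092 genes tested at E17.5 had such a peak. H3K27ac peaks lay near the same 4 starts and near that of Col17a1 (5 of 9, against 63.5% of genes), and ATAC peaks near all but those of Itga3 and Itga6 (7 of 9, against 84.4%). With only the stronger peaks kept (−log10 q of at least 10), Lamb3 alone had a KLF5 peak near its start, against 4.03% of genes. At that setting 3 of the 9 had an H3K27ac peak, against 41.4% of genes. All peak values are the authors', from 1 library an assay, and were compared only within a list.

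Counted over the whole genes and the 5 kb before them, 16 KLF5 peaks were listed, 13 of which overlapped an H3K27ac peak (81.2%, against 74.0% of all 6472 KLF5 peaks) and 14 an ATAC peak (87.5%, against 86.3%). Peaks over whole genes were not counted for all genes. Dst and Lama3 span 400428 and 248990 bases, so the number of peaks is a description only. Plec, which links intermediate filaments to integrin beta 4, held 4 of the 16 KLF5 peaks, 24736 to 42552 bases downstream of its outermost start. Each of the 4 overlapped both an H3K27ac and an ATAC peak. The outermost Plec start itself had an ATAC peak only. Lama3, the alpha 3 chain of the epidermal laminin, had a similar layout: an ATAC peak alone at its outermost start and 3 KLF5 peaks 25197, 129237 and 169974 bases inside the gene. In that order the Lama3 peaks ranked at the 94.1, 49.5 and 0.718 percentile of fold enrichment among all KLF5 peaks. The 4 Plec peaks ranked between the 0.695 and the 38.9 percentile. Itga6 had 1 KLF5 peak, 60655 bases inside the gene and overlapping an ATAC peak, and Col17a1 had none. Within 10 kb of the annotated starts, Col17a1 too had a KLF5 peak (5 of 9, against 27.2% of genes), and within 1 kb 3 of the 9 had one (18.9%). Plec and Lama3 are known to be transcribed from several starts, and the counts per gene do not separate them.

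**Figure D1:**
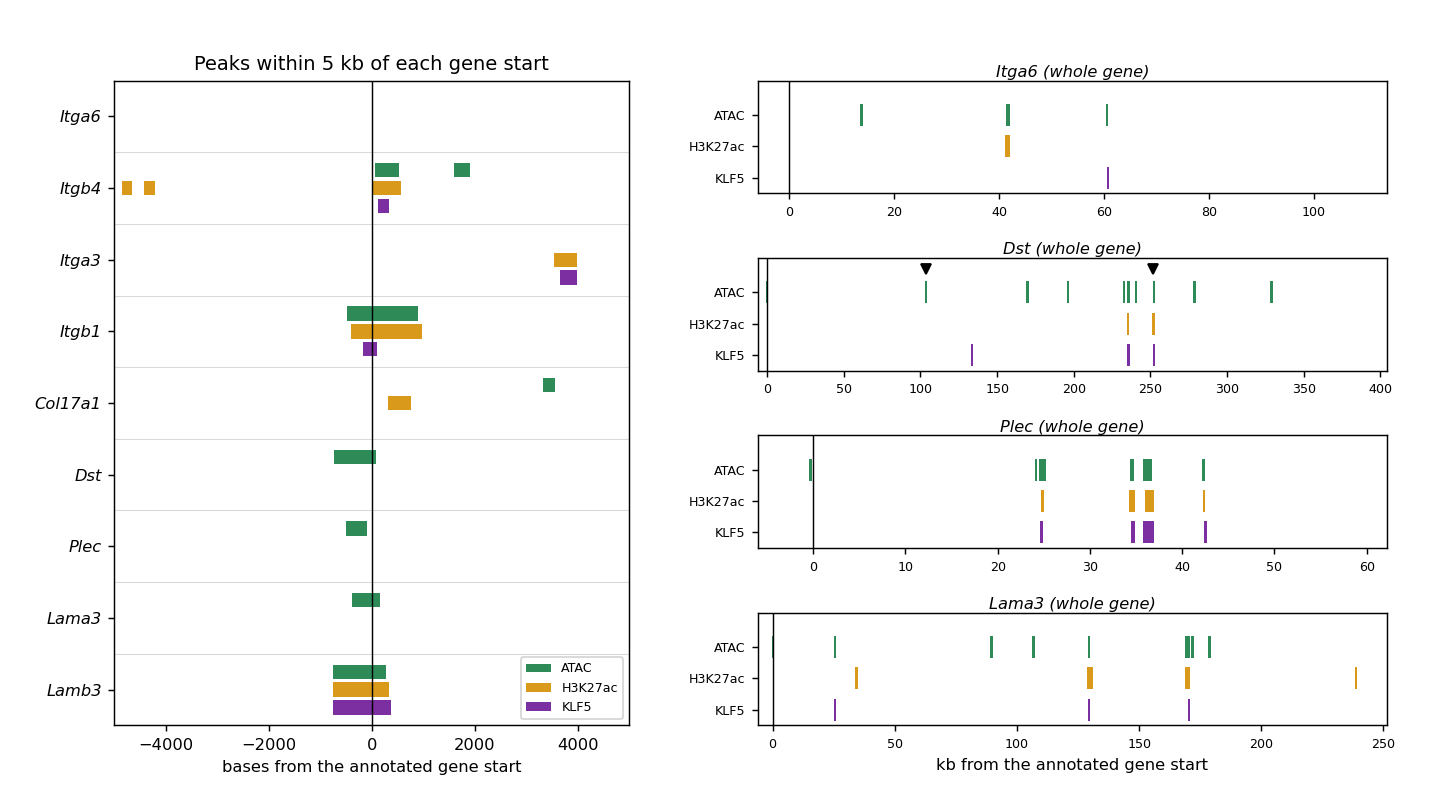
Deposited E17.5 peaks of ATAC, H3K27ac and KLF5 as bars, at left within 5 kb of the annotated start of each of the 9 genes (x axis in bases) and at right over 4 whole genes (x axis in kb, each to its own scale, narrow peaks drawn at a fixed least width). Black triangles mark the 2 Dst starts of the RefSeq table, and KLF5 bars lie near the starts of Itgb4, Itga3, Itgb1 and Lamb3 and inside Itga6, Dst, Plec and Lama3.

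Dst differed between its starts. It encodes dystonin, whose epithelial and neural isoforms are known to begin at different exons. Of the 2 Dst starts in the RefSeq promoter table, the upstream one (position 34011595 of chromosome 1) had an ATAC peak and no KLF5 or H3K27ac peak within 5 kb. The downstream one (position 34160260) lay within peaks of all 3 kinds. The KLF5 summit there was at -173 from the start, in a peak spanning chr1:34159969-34160386 with a fold enrichment of 5.11 and a −log10 q of 13.6. At Lamb3, the beta 3 chain, the KLF5 peak spanned chr1:193301211-193302338 with its summit at +35 from the first RefSeq start (fold enrichment 4.25, −log10 q 11.8). At Itgb1, the beta 1 subunit, the summit was at -64 from the start (fold enrichment 4.83, −log10 q 9.23).

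The 250 bases before 4 starts are shown because they set the Dst start with a KLF5 peak beside the one without, and Lamb3, with the highest −log10 q of the KLF5 peaks near the 9 annotated gene starts, beside Col17a1, which had none within 5 kb. The 2 Dst windows are chr1:34011345-34011594 and chr1:34160010-34160259, and the Lamb3 window is chr1:193301744-193301993, all on the plus strand. The Col17a1 window is chr19:47692043-47692292 on the minus strand, and all 4 are written 5′ to 3′ from RefSeq on GRCm38.p6. Capitals mark matches on either strand to CCNCNCCC, the core of the KLF and SP family, and would mark TGANTCA, the AP-1 site.
Dst upstream start: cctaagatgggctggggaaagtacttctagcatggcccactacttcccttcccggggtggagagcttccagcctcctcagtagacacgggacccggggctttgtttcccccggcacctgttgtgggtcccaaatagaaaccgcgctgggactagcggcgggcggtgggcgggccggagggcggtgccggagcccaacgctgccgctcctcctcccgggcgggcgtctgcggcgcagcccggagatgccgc
Dst downstream start: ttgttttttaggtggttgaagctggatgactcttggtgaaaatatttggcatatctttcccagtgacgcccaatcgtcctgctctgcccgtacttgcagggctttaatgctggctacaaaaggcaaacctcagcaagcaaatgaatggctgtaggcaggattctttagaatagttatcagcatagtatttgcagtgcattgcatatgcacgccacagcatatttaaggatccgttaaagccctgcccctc
Lamb3 first start: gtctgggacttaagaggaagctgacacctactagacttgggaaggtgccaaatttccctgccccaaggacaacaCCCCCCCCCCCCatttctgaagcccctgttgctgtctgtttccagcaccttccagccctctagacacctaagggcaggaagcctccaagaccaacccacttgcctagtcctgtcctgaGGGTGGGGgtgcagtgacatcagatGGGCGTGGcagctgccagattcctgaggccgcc
Col17a1 start: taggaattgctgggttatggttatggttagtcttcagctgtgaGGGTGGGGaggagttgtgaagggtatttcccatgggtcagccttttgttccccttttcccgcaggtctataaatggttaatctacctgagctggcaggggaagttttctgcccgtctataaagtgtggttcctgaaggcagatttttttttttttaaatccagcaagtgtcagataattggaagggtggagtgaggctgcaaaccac
Both Dst windows lacked a match to either motif. The Lamb3 window held CCNCNCCC as 5 overlapping matches in a run of C, as GGGTGGGG at -58 and as GGGCGTGG at -33. The Col17a1 window had 1 match, GGGTGGGG at -207, and Itgb1, whose window is not shown, had 1, CCTCCCCC at -46. CCNCNCCC occurs in 49.5% and TGANTCA in 7.81% of the 32817 promoter windows of the table (250 bases before to 50 after each start), so a match or its absence is a description of these letters only. The table held windows of 5 of the 9 genes, the fifth being Itga3, and none of Itga6, Itgb4, Plec and Lama3 was matched.

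The 9 genes were well expressed in every library, with 1915 to 44128 reads each, and their order differed between the sets. Per kilobase of exon, in RPKM scaled over all 10 libraries, Col17a1 led at E17.5 with 124 ± 23.0 in Klf5+/- (SD, n = 3) and 143 ± 31.1 in the group labelled Klf5-/-. Itgb1 followed at 56.3 ± 2.59 and 60.4 ± 0.952, and neither E17.5 group of Itgb1 reached the lowest Col17a1 library. In the Klf5+/- libraries Lamb3 (46.3 ± 9.03) overlapped both Itgb1 above it and Itga6 below it (38.7 ± 2.64). Lama3, Itga3, Itgb4 and Plec formed a lower group of 21.4 ± 3.91, 18.4 ± 3.91, 18.1 ± 4.88 and 15.9 ± 2.95 RPKM whose neighbours overlapped. Dst was lowest at 12.0 ± 1.2. Dst and Plec are understated on this scale, since the exon lengths used, 37404 and 18067 bases, add up the exons of all isoforms.

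In the HFD Klf5+/- libraries Itgb1 led instead, at 122 ± 1.49 RPKM (SD, n = 2), above Col17a1 at 71.2 ± 23.9 with no overlap. Dst stood in the fifth place at 21.7 ± 4.76, and Plec was lowest at 7.65 ± 0.960. In the HFD libraries labelled Klf5-/- the top pair stood as at E17.5, with Col17a1 at 109 ± 29.9 and Itgb1 at 77.9 ± 13.1, and these did not overlap either.

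**Figure D2:**
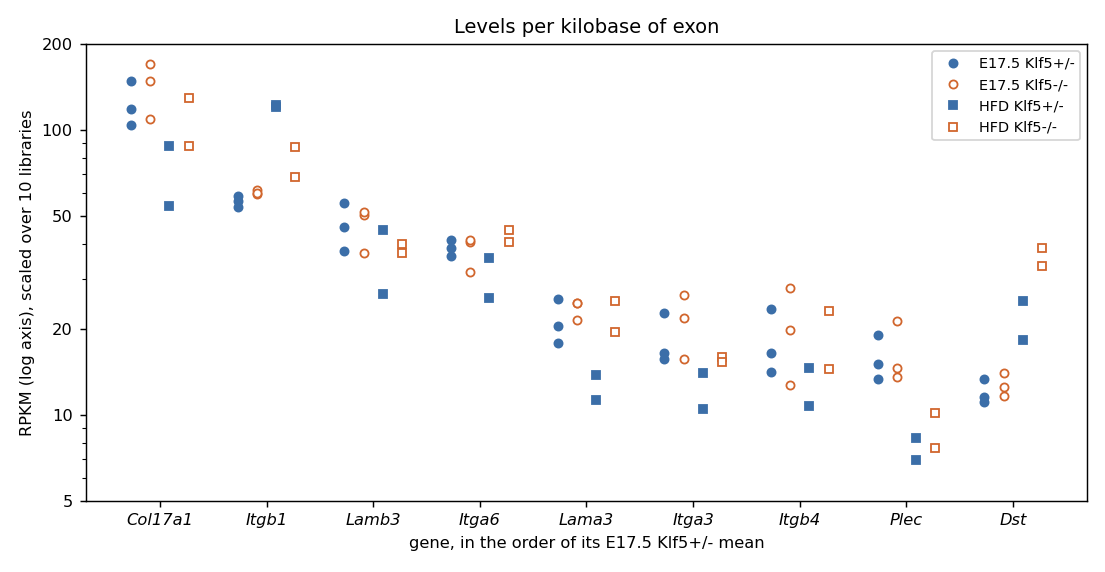
RPKM of each gene in each library on a log axis, genes ordered by their mean in the E17.5 Klf5+/- libraries; filled symbols are Klf5+/- and open symbols Klf5-/-, circles E17.5 and squares HFD. Col17a1 is highest at E17.5, Itgb1 is highest in the HFD Klf5+/- libraries at 122 ± 1.49, and Dst stands above Plec in the HFD set alone.

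At E17.5 none of the 9 genes differed between the genotypes beyond the spread of the libraries. Itga6 lay at 410, 387 and 358 CPM in the Klf5+/- libraries and at 405, 411 and 318 in those labelled Klf5-/-. Its partner Itgb4 lay at 182, 128 and 110 CPM against 154, 215 and 99. For both subunits the groups overlapped, and the log2 differences were -0.03 (95% interval -0.28 to 0.23) and 0.16 (-0.62 to 0.94). Col17a1 lay at 942, 751 and 659 against 945, 1082 and 697 CPM, with a log2 difference of 0.21 (-0.19 to 0.62). Itgb1 was the 1 gene whose groups did not overlap, at 253, 243 and 264 against 277, 268 and 271 CPM, but its difference was small, 0.10 (SE 0.08, adjusted p = 0.795), and 14.8% of all genes tested had such separate groups. The steadiest estimates, those of Itgb1, Itga6 and Dst, bounded a difference to at most 0.28, 0.23 and 0.33 upward on the log2 scale, while that of Itgb4 allowed 0.94.

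By edgeR's quasi-likelihood test with Benjamini-Hochberg adjustment over all genes, 0 of the 9 passed an adjusted p of 0.05, where 0.0861% of genes did, and 0 of the 9 had an unadjusted p under 0.05. DESeq2 and limma-voom called 0 of the 9 as well. The estimates ran from -0.03 (Itga6) to 0.21 (Itga3, a laminin receptor subunit), 8 of 9 above 0 where 52.7% of all genes were, with a median of 0.10 against 0.01; scaled by library totals, Itga6 too was above 0, at 0.043. Lama3 (0.15), Dst (0.09), Plec (0.06) and Lamb3 (0.01) lay between. Beside these values, and with CPM of marker sums scaled over all 10 libraries here and below, the summed suprabasal keratinocyte markers were lower in the libraries labelled Klf5-/- (28318 to 44691 CPM) than in the Klf5+/- libraries (52867 to 66408), and 0 of those 7 genes passed the test. The summed basal markers overlapped (21283 to 25158 against 19296 to 22675) and summed fibroblast markers were low but separate (564 to 624 against 384 to 519 CPM, with all 9 detected). Dcn, a matrix proteoglycan that made up most of that sum, differed by 0.29, but the median log2 difference of the 9 fibroblast markers was 1.59. The largest, 5.32, was that of Dpt, which had 0 to 2 reads in each Klf5+/- library. All 9 fibroblast markers were above 0, and 0 passed the test (lowest adjusted p = 0.0557, Col6a1). Their part in the differences was not tested.

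**Figure D3:**
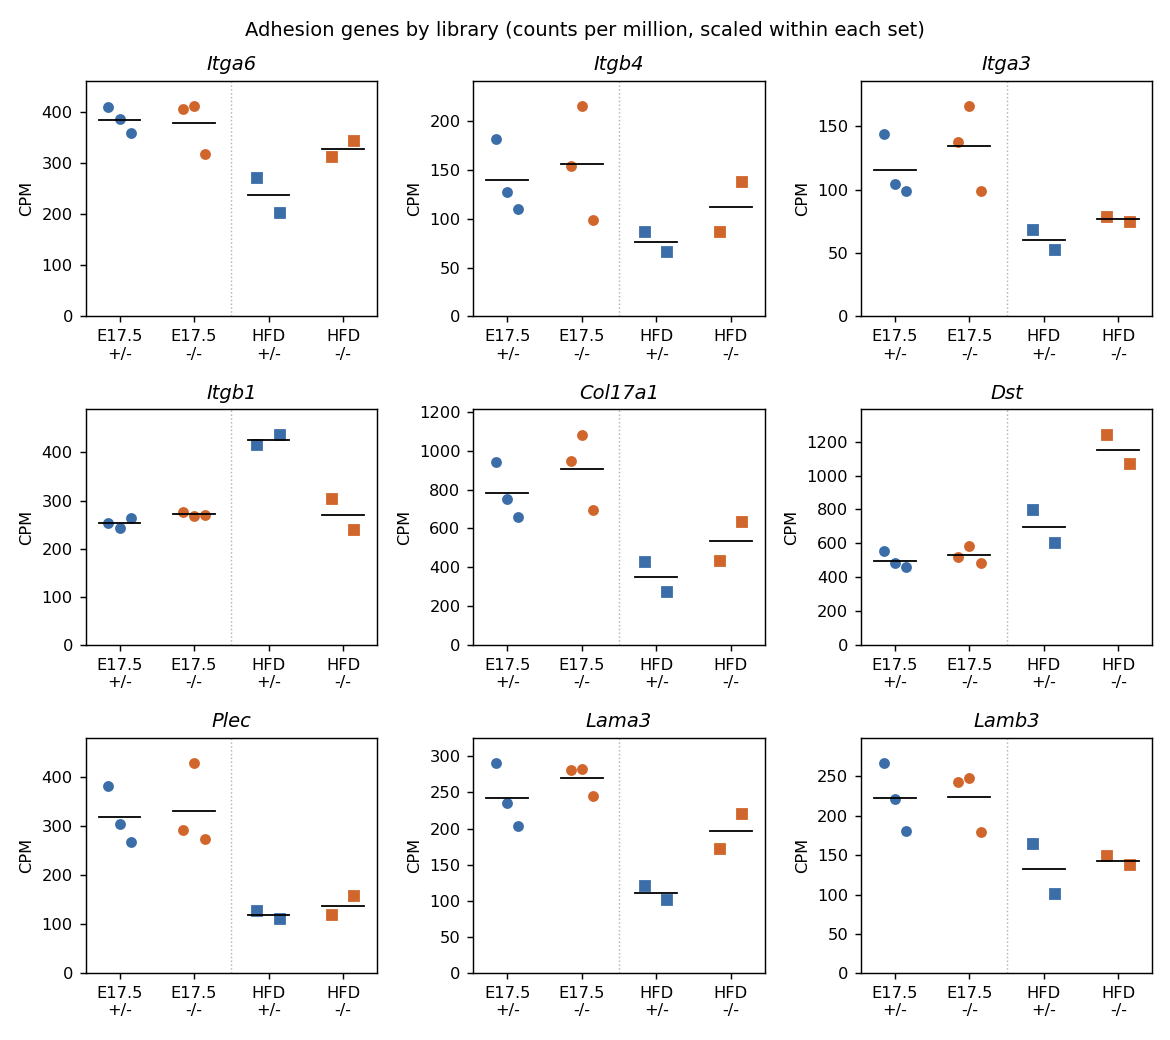
CPM of each gene in each library, scaled within each set, with 1 panel a gene, a y axis from 0, blue Klf5+/- and orange Klf5-/- libraries, and black lines at group means. The E17.5 groups overlap for every gene but Itgb1, and in the HFD set Dst and Lama3 are higher and Itgb1 lower in the libraries labelled Klf5-/-.

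What varied among the E17.5 libraries was shared by 8 of the genes and cut across the genotype labels. The mean of the 9 genes (log2 CPM centred on the set) was 0.18, -0.10 and -0.24 in the 3 Klf5+/- replicates. It was 0.09, 0.28 and -0.22 in the replicates labelled Klf5-/-. So 1 library of each genotype stood high and another of each stood low. The pattern was not limited to these genes: the summed levels of all 4 lists of other matrix adhesion genes put the libraries in the same order within each genotype. Pearson's r of each gene with the mean of the other 8 over the 6 libraries was 0.82 (Itga6) to 0.98 (Col17a1, Itga3 and Itgb4) for all but Itgb1, at 0.04. In the 4 HFD libraries the same 8 had r from 0.66 (Lamb3) to 0.99 (Itga6), and Itgb1 had -0.90. These r describe libraries that share a scaling, and in the HFD set they include the genotype difference.

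Itgb1 thus stood apart from the other hemidesmosome and laminin receptor genes in both sets, including from Itga3, which encodes one of its alpha partners. Of the 14097 other genes tested in both sets, those closest to the mean of the 9 genes over the 10 libraries, each set centred on its mean, were Celsr1 (r = 0.99), Jag2 (0.97), Vps37b (0.97), Ptprf (0.96) and Rela (0.96). Celsr1 is an atypical cadherin of planar cell polarity, Jag2 a Notch ligand, Vps37b a subunit of the endosomal sorting complex ESCRT-I, Ptprf a receptor tyrosine phosphatase and Rela a subunit of NF-kappa-B.

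**Figure D4:**
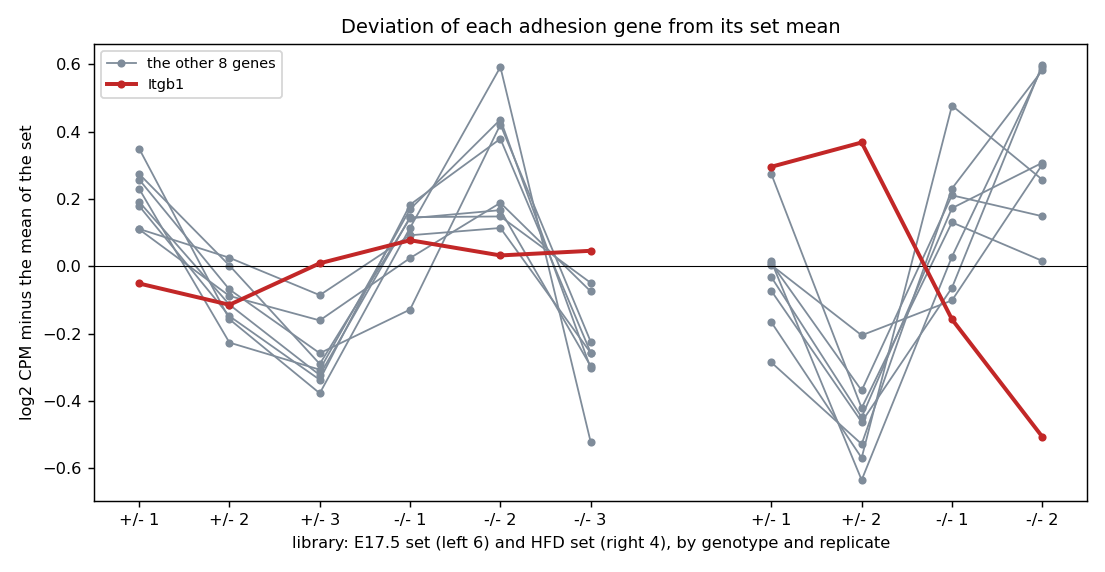
Log2 CPM of each gene minus its mean over the set (y axis), for the 6 E17.5 libraries at left and the 4 HFD libraries at right (x axis), with Itgb1 in red and the other 8 genes in grey. At E17.5 the grey lines rise and fall together within each genotype while Itgb1 stays near 0. In the HFD set Itgb1 runs opposite to them except in the last step, between the libraries labelled Klf5-/-, where Dst, Lamb3 and Itga3 fall with it.

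In the HFD set the laminin chain Lama3 and the plakin Dst were higher and Itgb1 was lower in the libraries labelled Klf5-/-, by amounts that did not pass the threshold of the test. Lama3 lay at 120 and 102 CPM in Klf5+/- and at 172 and 220 CPM in Klf5-/- as labelled, a log2 difference of 0.82 (SE 0.20, adjusted p = 0.0653). Dst lay at 795 and 601 against 1241 and 1066 CPM, a difference of 0.73 (SE 0.23, adjusted p = 0.113). Itgb1 lay at 416 and 437 against 303 and 238 CPM, a difference of -0.65 (SE 0.20, adjusted p = 0.0999). For each of the 3 the groups did not overlap.

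Among the remaining genes the estimates were above 0 and less certain. Col17a1 lay at 426 and 271 against 430 and 635 CPM (0.61, SE 0.30) and Itgb4 at 86.2 and 65.7 against 86.8 and 138 (0.56, SE 0.27). In both, the higher Klf5+/- library all but met the lower one labelled Klf5-/-. Itga6 lay at 271 and 203 against 312 and 343 CPM (0.47, SE 0.21), Itga3 at 67.8 and 52.1 against 78.1 and 74.7 (0.35, SE 0.19). Plec (0.21, SE 0.20) and Lamb3 (0.11, SE 0.25) overlapped between the genotypes. Lamb3, unlike its partner chain Lama3, was highest in a Klf5+/- library, at 164 CPM.

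By the same test 0 of the 9 passed an adjusted p of 0.05 in the HFD set, where 5.50% of all genes did, and 3 (Itgb1, Dst and Lama3) had an unadjusted p under 0.05. Estimates above 0 numbered 8 of 9, against 49.5% of all genes, with a median of 0.47 against -0.01, but scaling by library totals, which moved the median of all genes to -0.23, put Plec at -0.0087 and Lamb3 at -0.12. In 7 of the 9 the groups did not overlap, where 60.1% of all genes had separate groups in 2 against 2 libraries. DESeq2 called 3 of the 9 (Lama3 adjusted p = 0.00329, Dst 0.0128, Itgb1 0.0273), while limma-voom called Lama3 alone (0.0434). Both methods also called more of all genes than the main fit did. With each HFD library left out in turn, Dst ran from 0.54 to 0.94 and Itgb1 from -0.81 to -0.45. Lama3 stayed at 0.67 or above, and Lamb3 ran from -0.20 to 0.50. Such fits leave 1 library in a group, so their calls are not counted here.

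**Figure D5:**
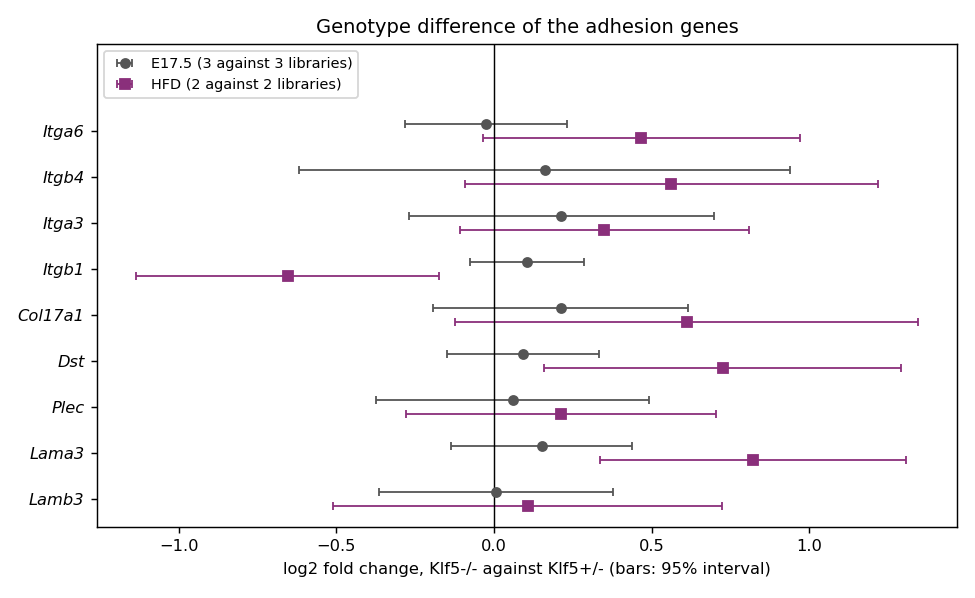
Log2 fold change of the libraries labelled Klf5-/- against Klf5+/- (x axis) for each gene, with 95% intervals as bars, for E17.5 (grey circles, 3 against 3) and HFD (purple squares, 2 against 2). All E17.5 intervals include 0, and those of Dst, Lama3 and Itgb1 in the HFD set do not, although none passed the adjusted threshold.

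Markers of several other cell types, but not of all, were lower in the HFD libraries labelled Klf5-/-. The 9 summed fibroblast markers lay at 20513 to 23823 CPM in the Klf5+/- libraries and at 955 to 5660 in those labelled Klf5-/-, and the 7 summed endothelial markers at 395 to 433 and 15.5 to 76.6. Of these, 0 of the 9 and 2 of the 7 passed the test. The smooth muscle, immune, Schwann and adipocyte sums were also lower without overlap, with 3 immune genes above 0 and 2 below. The melanocyte (195 to 248 against 148 to 273 CPM) and skeletal muscle sums (647 to 2294 against 70.5 to 705) overlapped. The 4 basal keratinocyte markers summed to 10575 to 17274 against 20967 to 22256 CPM, with a median log2 difference of 0.65, above the 0.47 of the 9 adhesion genes. The 7 suprabasal markers summed to 27873 to 28045 CPM in the Klf5+/- libraries and to 58216 to 63724 in those labelled Klf5-/-, opposite in direction to E17.5, with a median log2 difference of 1.09 and 1 gene, Krt1, past the threshold (1.32, adjusted p = 0.0499). The part of these markers in the differences of the 9 genes was not tested. In bulk RNA, fewer cells of a type and less RNA per cell cannot be told apart, and fibroblasts are known to express Itgb1.

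Set against the summed basal markers of the same library, a scale chosen after the marker levels had been seen, 6 of the 9 HFD differences changed sign. Col17a1 went to -0.05, Itgb4 to -0.13, Itga6 to -0.19, Itga3 to -0.31, Plec to -0.47 and Lamb3 to -0.52, while Dst (0.07) and Lama3 (0.15) kept a small positive value. Itgb1 went from -0.65 to -1.33, from 28.4 to 47.2 CPM per 1000 CPM of basal markers in the Klf5+/- libraries to 12.5 to 16.9 in those labelled Klf5-/-. On the same scale it lay at 9.86 to 12.4 and 9.93 to 11.5 in the E17.5 groups. In CPM scaled over all 10 libraries, Itgb1 itself was nearly equal in the first and second HFD Klf5+/- libraries, at 491 and 500. Their summed basal markers were 17274 and 10575, so the spread of the ratio within that group came from its denominator. The part of fibroblast RNA in the Itgb1 difference was not tested. These ratios were given no test.

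The genotype difference itself differed between the sets for 1 of the 9 genes, Itgb1, where 14.7% of all 17260 genes tested passed. Its HFD difference minus its E17.5 difference was -0.75 (SE 0.17, adjusted p = 0.0164, edgeR's quasi-likelihood test of the contrast over all 10 libraries). Without the second E17.5 Klf5+/- library the adjusted p was 0.0509 and without the second HFD Klf5+/- library 0.0536, with the size at -0.71 and -0.74. Lama3 (0.68, adjusted p = 0.0819) and Dst (0.64, adjusted p = 0.0853) had the next most certain differences and did not pass. Apart from Itgb1, all of the 9 had a positive estimate (8 of 9, against 49.1% of all genes), but Itga3, Plec and Lamb3 turned to -0.16, -0.14 and -0.19 with library totals, which moved the median of all genes to -0.31, and crossed 0 when single libraries were left out.

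Between the Klf5+/- libraries of the sets, 6 of the 9 genes differed, near the 61.0% of all genes that did: 2 were higher in the HFD set, as 32.1% of all genes were, and 4 lower, as 28.9% were. Their groups did not overlap in 7 of the 9 (77.5% of all genes), and 2 of the 9 estimates were above 0 (50.6%). Itgb1 was 1.11 higher in log2 in the HFD set (SE 0.12, adjusted p = 1.87e-05) and Dst 0.86 higher (SE 0.16, adjusted p = 0.000794). Plec fell by 1.06 on the log2 scale (SE 0.23, adjusted p = 0.00206), Lama3 by 0.76 (SE 0.17, adjusted p = 0.00281), Col17a1 by 0.80 (adjusted p = 0.0241) and Itga3 by 0.58 (adjusted p = 0.0471). Col17a1 lost its call without the first E17.5 Klf5+/- library (adjusted p = 0.0788) or the second HFD one (0.201), and Itga3 without any one of 6 single libraries. Itga6, whose protein was the sort marker at E17.5, was -0.33 (adjusted p = 0.0955), and Itgb4 (-0.51) and Lamb3 (-0.38) did not pass either.

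The plakins thus moved in opposite directions between the sets, Dst up and Plec down. The ratio of Dst to Plec in RPKM was 0.698 to 0.828 in E17.5 Klf5+/-, 2.64 to 3.01 in HFD Klf5+/- and 3.28 to 5.07 in HFD libraries labelled Klf5-/-. The sets differ in sorting, preparation, library kit, stage information and in the share of reads that fell on more than 1 gene (3.40 to 3.79% at E17.5, 1.07 to 1.14% in the HFD set), and these cannot be told apart. No source used here gives the strand setting of the counting for either set, so reads may have been assigned to overlapping genes differently in the sets, which was not tested. Plec overlaps Parp10 on its own strand, which had at most 451 reads in a library against at least 3454 for Plec.

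Partner subunits differed in whether their ratios overlapped between the groups. Itga6 to Itgb4, the chains of the hemidesmosome integrin, stood at 2.21 ± 0.409 and 2.00 ± 0.504 in RPKM at E17.5 (Klf5+/- then Klf5-/-) and at 2.41 ± 0.0299 and 2.36 ± 0.606 in the HFD set, with all groups overlapping. Itga3 to Itgb1 stood at 0.327 ± 0.0708 and 0.353 ± 0.0899 at E17.5, and at 0.101 ± 0.0222 and 0.204 ± 0.0286 in the HFD set, where the groups were apart. Lama3 to Lamb3 was higher in the libraries labelled Klf5-/- of both sets with the groups apart, at 0.450 to 0.477 against 0.481 to 0.579 at E17.5 and 0.311 to 0.425 against 0.491 to 0.679 in the HFD set. These ratios are descriptions over 3 or 2 libraries a group.

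A list of 39 other basement membrane and matrix adhesion genes behaved otherwise in the HFD set. There 7 of the 39 were lower in the libraries labelled Klf5-/-, as 4.02% of all genes were, and 0 were higher (1.48%), with a median of -0.32. They included the scaffold genes Nid1 (-2.23, adjusted p = 0.0339), Col4a1 (-2.08, adjusted p = 0.0390) and Col4a2 (-2.0, adjusted p = 0.0337), which encode nidogen 1 and the main collagen IV chains. The integrin subunits Itga9 (-2.57, adjusted p = 0.0451) and Itga5 (-1.73, adjusted p = 0.0337) and the integrin-actin linker Parva (-0.98, adjusted p = 0.0473) were also lower. The summed fibroblast and endothelial markers given above were lower in the same libraries, and their part was not tested.

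At E17.5, 0 of the 38 of these genes that were tested passed in either direction, where 0.0331% of all genes were higher and 0.0530% lower. Of the 38, 32 were above 0, with a median of 0.19. All 14 laminin, collagen and scaffold genes were above 0, at most 0.44 (Lamb1, adjusted p = 0.640). Npnt, an integrin ligand of the basement membrane, was at -0.29 (adjusted p = 0.408). In the difference between the sets, 13 of the 39 were lower and 3 higher, where 7.61% and 7.07% of all genes were: Nid2 at -3.02 (adjusted p = 0.00878), Nid1 at -2.62 (0.00267) and Lamb1 at -2.37 (0.0109) were the lowest of the scaffold genes. The 3 higher were Itgb6 (1.51, adjusted p = 0.0462), Grip1 (0.99, adjusted p = 0.0325) and Fermt1 (0.48, adjusted p = 0.0443), which encode an epithelial integrin subunit, an adaptor of the Fraser proteins and kindlin 1.

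Between the Klf5+/- libraries of the sets, 14 of the 39 were higher in the HFD set and 13 lower, near the 32.1% and 28.9% of all genes that were. Nid1 was 5.52 and Itga5 2.46 higher in log2. The collagen IV chains Col4a5 (-1.20) and Col4a6 (-1.14) and the Fraser complex genes Fras1 (-1.63) and Frem2 (-1.89), known to be made by epidermis, were lower, as was Fermt1 (-1.31, adjusted p = 2.66e-06). Frem1, of the same Fraser list, went the other way (1.13), so that 4 of the 5 genes of that list were lower and 1 higher. Fibroblast markers summed to 384 to 519 CPM in the E17.5 Klf5+/- libraries and to 20513 to 23823 in the HFD ones. Their part in these differences was not tested.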

How the data were processed

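RNA was measured in 10 mouse skin epithelium libraries and chromatin in 3 E17.5 libraries. For each RNA library a table of unnormalized counts by Ensembl gene was deposited. The submitters' processing notes name HTSeq, STAR 2.6.0b and the mm10 (GRCm38) build, and no strand setting. RPKM values deposited beside the HFD counts matched values recomputed from the counts and exon lengths (largest relative deviation 7.6e-14). They were not used in tests, and the RPKM printed here were computed from the counts. Per the submitters' processing notes, MACS2 made the peak calls. The deposited peak lists give a fold enrichment (a ratio over local background) and −log10 p and q values for each peak, and a deposited integer score was not used. No source used here gives the control or the threshold. The HaCaT lists were not used and an IgG sample was not analysed here.

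Reads on no single gene (13.4 to 16.9%) were left out. Groups came from the genotype labels and titles. The E17.5 and the HFD libraries were fitted separately (edgeR 4.0.16, R 4.3.3, TMM, filterByExpr, robust quasi-likelihood test, genotype only), with Benjamini-Hochberg adjustment over all genes and a threshold of 0.05. The difference between the sets and the Klf5+/- contrast were fitted over all 10 libraries. CPM of single genes were scaled within a set, and marker sums and RPKM (by summed exon length) over all 10 libraries. Intervals are 95% and use the fit's degrees of freedom. DESeq2 1.42.0, limma 3.58.1 (voom), other scalings, no filter, a replicate block and each library left out were alternatives. The fits were tested on simulated data. Likeness used log2(CPM + 0.5). Other pathway genes were named when past the threshold (at most 3 a list and direction), and otherwise as the 2 of largest change with at least 10 CPM. The 9 genes, the lists and the tests were chosen with earlier results of these data known. Libraries of a group differed far beyond sampling noise, so none was counted as a duplicate.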

Additional observations from a re-analysis of the deposited data

Results flagged for a closer look

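Itgb1, which encodes the integrin beta 1 subunit, was the only one of the 9 genes whose genotype difference differed between the sets in a test of that difference: -0.75 on the log2 scale (HFD minus E17.5, adjusted p = 0.0164, edgeR's quasi-likelihood test). Of all genes tested, 14.7% passed the same test, so 1 of 9 is no more than the background. The Itgb1 difference was 0.10 at E17.5, where all 3 libraries labelled Klf5-/- lay above the 3 Klf5+/- libraries, and -0.65 in the HFD set, where both lay below. Over the alternatives the value ran from -0.58 to -1.05 and the adjusted p from 0.000228 to 0.0536.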

How the results depend on the processing

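At E17.5 none of the 9 genes was called under any alternative run, while the count over all genes went from 13 to 461 with DESeq2 (125 higher, 336 lower), 6 with library totals (4 higher), 237 without a filter, 3 when all 10 libraries were fitted together, 0 with limma-voom, and 0 to 513 with each library left out. Itga6 turned to 0.043 with library totals, and leaving out a library gave ranges across 0 for Itga6 (-0.091 to 0.083), Itgb4 (-0.14 to 0.40), Plec (-0.17 to 0.22) and Lamb3 (-0.13 to 0.16). In the HFD set 872 genes were called (235 higher, 637 lower), 2906 with DESeq2 (1156 higher), 1340 with library totals (138 higher, 1202 lower), 2396 without a filter (884 higher), 3672 when all 10 libraries were fitted together (1623 higher), 1942 with limma-voom, and 19 to 5389 with each library left out. Of the 9 genes, 3 were called with DESeq2 and in the fit of all 10 libraries, 1 each with library totals (Itgb1), without a filter (Lama3) and with limma-voom, and 0 to 5 with each library left out. Library totals moved the median of all genes to -0.23 in the HFD set, -0.31 in the difference of effects and -0.21 between the sets, and turned Plec to -0.0087 and Lamb3 to -0.12 in the HFD set and Itga3 to -0.16, Plec to -0.14 and Lamb3 to -0.19 in the difference, all above those medians. Lamb3 ran from -0.20 to 0.50 in the HFD set with each library left out. Relative to summed basal markers, Itga3 went to -0.31, Itga6 to -0.19, Itgb4 to -0.13, Col17a1 to -0.048, Plec to -0.47 and Lamb3 to -0.52. In the difference of effects DESeq2 called 3 of the 9, and each library left out gave 0 to 2 of the 9, 1266 to 4467 of all genes and ranges across 0 for Itga3 (-0.089 to 0.38), Plec (-0.056 to 0.36) and Lamb3 (-0.22 to 0.53); library totals called 569 higher and 2469 lower against 1221 and 1313. Between the Klf5+/- libraries none of the 9 changed sign. With a −log10 q of at least 10, H3K27ac peaks lay near 3 of the 9 starts (41.4% of all genes) and KLF5 peaks near 1 (4.03%). Replicate numbers were not used as pairs. At E17.5 the same-number correlations were 0.07, -0.13 and 0.28, and not every library correlated best with its own number. In the HFD set the correlation was 0.22 for the same number and -0.22 for the other. With 2 libraries a group these are by construction 1 value with opposite signs, so they cannot decide whether the numbers pair the HFD samples. With a replicate block 42 genes were called at E17.5 and 1520 in the HFD set, with 0 of the 9 in both. A lone library left in a group was taken to vary like the other groups. The basal-marker ratios contain the rise of those markers by construction; the cause of the other changes was not tested. Each of the 9 genes had at least 1915 reads in every library.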

Other observations

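Ilk, the integrin-linked kinase and 1 of the 39 other matrix adhesion genes, had 0 to 5 reads in each of the 6 E17.5 libraries and 2537 to 6331 in each of the 4 HFD libraries. It was too low for the genotype test at E17.5. In the fit of all 10 libraries it passed between the Klf5+/- libraries (adjusted p = 6.28e-08, edgeR's quasi-likelihood test) and is 1 of the 14 genes of that list that were higher in the HFD set. No label gives the strand setting of the counting, and its part in these near-0 counts was not tested.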
